A study of Homo sapiens with 4 samples.

Results

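Interferon-induced antiviral genes are genes that nearly every cell type switches on when interferon signals that a virus is near. The set described here holds 41 such genes, chosen by symbol from known interferon-induced genes and not by a threshold on these values. Earlier results of these data were known when they were chosen. All 41 were listed in each library, out of 23284 genes in all. They were measured in A375, an established line of human melanoma cells that carries a BRAF mutation, in 4 Ion Torrent libraries of poly(A) RNA. The vector library came from cells stably transfected with empty pcDNA3, and the overexpression library from cells stably carrying pcDNA3 with MAGE-A1, a cancer-testis antigen made in testis and in many tumours. The scramble library came from cells stably carrying pRNAT with a scrambled sequence, and the knockdown library from cells with pRNAT carrying a short hairpin against MAGE-A1. The labels name no interferon treatment and no infection, and do not say whether each stable line was a pool or a single clone. Each group held 1 library, so no difference has a replicate check and no p-value is given.

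Type I interferons bind the receptor IFNAR and activate the kinases JAK1 and TYK2, which phosphorylate STAT proteins, among them STAT2. Together with IRF9 these form a complex that binds the interferon-stimulated response element (ISRE) in promoters. Interferon gamma acts on a different element, the gamma-activated site (GAS), and one gene it switches on is the transcription factor IRF1. The proteins made as a result act at separate steps of infection: some sense viral RNA or DNA, some bind or degrade RNA, and others block entry, assembly or release of virus. Tumour cells can express many of these genes at low level without added interferon.

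Levels are RPKM, read numbers scaled to transcript length and library size. A log2 ratio is log2((RPKM + 1)/(RPKM + 1)) of treated over control, which understates differences of low genes. Genes counted as higher or lower had a log2 ratio of at least 1 in size (2-fold), and genes below 1 RPKM in both libraries of a pair were not measured in it. A plain ratio is RPKM over RPKM, with a 95% exact conditional interval from estimated reads that covers counting error only and not the spread between cultures. Depth was estimated at 24160000 reads for vector, 12800000 for overexpression, 16100000 for scramble and 19400000 for knockdown. MAGEA1 was at 1.80 RPKM with vector and 126 with overexpression, a ratio of 69.8 (54.5 to 90.2). It was at 0.767 with scramble and 0.473 with knockdown, a ratio of 0.616 (0.284 to 1.29), so that a fall of the targeted gene could not be detected in the library labelled knockdown.

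The promoters show what the set shares beyond its name. The RefSeq promoter table (GRCh38.p14) holds windows from 250 bases before to 50 after a start of transcription, and 33 of the 41 genes matched it, 1 of them (DDX58) through a synonym. IFIT2, MX2, OAS2, OASL, IFITM2, IRF7, USP18 and GBP2 had no entry. The ISRE core was searched as GAAA, any 2 bases (NN) and GAAA, or on the other strand TTTC, NN and TTTC, and GAS as TTCNNNGAA, which reads the same on both strands. A match is a run of letters, not a shown binding site. The stretches below are from 6 genes lower in the overexpression library (IFIT1, IFIT3, IFI44, IFITM1, BST2 and GBP1), 3 within 2-fold there (IFIT5, IFITM3 and ISG15) and both genes higher there (ISG20 and IRF1). Each runs 5′ to 3′ on the gene's strand, ends before the start of transcription, and has ISRE core and GAS matches in capitals.
IFIT1 (chr10:89392495-89392541, plus strand): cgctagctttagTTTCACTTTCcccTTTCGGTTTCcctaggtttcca
IFIT3 (chr10:89327829-89327896, plus strand): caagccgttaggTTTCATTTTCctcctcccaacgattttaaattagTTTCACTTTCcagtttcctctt
IFI44 (chr1:78649759-78649788, plus strand): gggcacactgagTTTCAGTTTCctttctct
IFITM1 (chr11:313988-314039, plus strand): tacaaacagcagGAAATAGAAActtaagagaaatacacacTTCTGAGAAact
BST2 (chr19:17405668-17405778, minus strand): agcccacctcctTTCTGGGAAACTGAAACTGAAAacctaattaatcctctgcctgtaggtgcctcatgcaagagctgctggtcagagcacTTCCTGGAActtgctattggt
GBP1 (chr1:89065314-89065347, minus strand): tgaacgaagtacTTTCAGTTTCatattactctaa
IFIT5 (chr10:89414511-89414567, plus strand): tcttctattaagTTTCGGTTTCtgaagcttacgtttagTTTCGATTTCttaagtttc
IFITM3 (chr11:320874-320924, minus strand): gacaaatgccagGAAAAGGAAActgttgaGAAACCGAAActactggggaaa
ISG15 (chr1:1013372-1013411, plus strand): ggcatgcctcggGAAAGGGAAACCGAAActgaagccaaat
ISG20 (chr15:88638935-88638968, plus strand): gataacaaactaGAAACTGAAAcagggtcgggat
IRF1 (chr5:132490877-132490909, minus strand): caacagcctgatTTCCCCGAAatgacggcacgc

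An ISRE core match lay in the window of 23 of the 33 matched genes (69.7%), against 4.38% of the 27305 genes in the table. A GAS match lay in 10 of the 33 (30.3%), against 9.38% of all. In BST2, ISG15, IFIH1, HERC5, IFITM1, IFI27 and MX1 some matches overlapped each other, so that capitals run together in BST2 and ISG15. Matches that cross the start of transcription, as in IFITM1 and IFIT5, are counted but not printed in capitals. IFI35, IRF1 and IRF9 were among the genes with a GAS match and no ISRE core match.

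In the overexpression library, genes with and without an ISRE core match included both higher and lower ones. Of the 19 genes with a match that could be measured, 6 were lower and 1 higher, where 7.28% and 10.6% of all genes in the pair were, with a median log2 ratio of -0.32. Of the 9 measured genes in the table without a match, 1 was lower and 1 higher (IRF1), with a median of 0.26. The remaining 7 measured genes had no entry in the table, and 2 of them, IFIT2 and GBP2, were lower. In the knockdown pair the medians were -0.25 for 20 measured genes with a match and -0.16 for 9 without. The plot of match positions shows both kinds of match in genes at either end of the ratios.

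**Figure D1:**
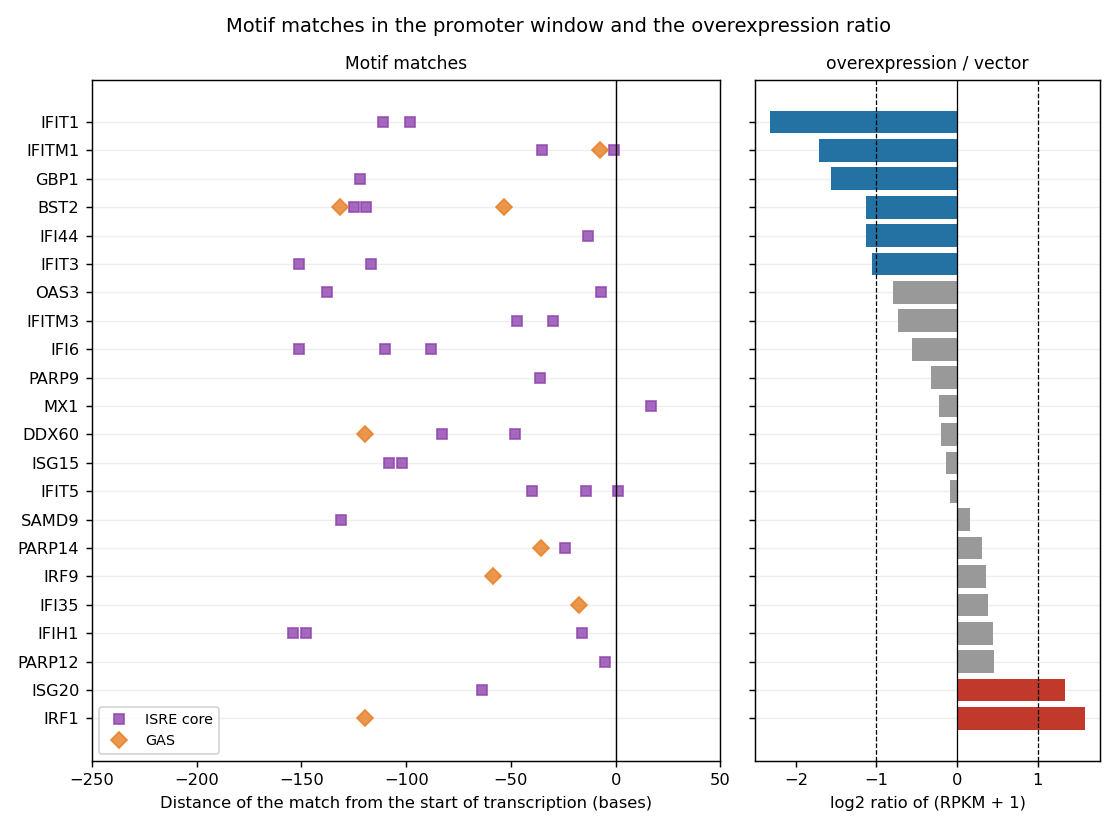
Positions of ISRE core (squares) and GAS (diamonds) matches relative to the start of transcription, in bases, for 22 genes with a match that were measured in the overexpression pair (left; the first window where the table has several), and each gene's log2 ratio of (RPKM + 1), overexpression over vector (right; dashed lines at 2-fold). IFIT1 and ISG20, at log2 ratios of -2.31 and 1.34, both carry ISRE core matches, and IRF1, at 1.58, carries a GAS match.

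Most of the 41 genes were present at a modest level. Their median was 7.29 RPKM with vector, 3.62 with overexpression, 6.73 with scramble and 5.48 with knockdown. In every library at least 1 RPKM was reached by 30 of the 41, and 26 reached 5 RPKM in some library. IFITM3, which blocks virus entry from endosomes, was the highest of them in all but the overexpression library, at 341, 362 and 644 RPKM with vector, scramble and knockdown, and it was at 206 with overexpression. ISG20, an RNA-degrading exonuclease, was the highest with overexpression at 238 RPKM. IFITM3 alone made up 39.5%, 24.9%, 38.4% and 43.5% of the set's summed RPKM with vector, overexpression, scramble and knockdown. The DNA sensor IFI16, at 67.1 to 95.4 RPKM, and IFI35, a protein that binds other interferon-induced proteins, at 35.3 to 99.1 RPKM, were also among the more abundant.

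Under 1 RPKM in every library were 5 genes, OASL, IFI27, IFI44L, XAF1 and RSAD2, at 0.0122 to 0.560 RPKM. RSAD2 (viperin) makes a nucleotide that stops viral RNA synthesis, and IFI27 and IFI44L are strongly induced in blood cells during viral infection. Another 8 genes peaked between 1 and 5 RPKM and were not counted as higher or lower in either pair: IRF7, DDX58, IFIH1, DDX60, USP18, HERC5 (under 1 RPKM in both libraries of the overexpression pair), HERC6 and CMPK2. Their log2 ratios ran from -0.52 to 0.70 with overexpression and from -0.80 to 0.50 with knockdown. At such low levels the added 1 RPKM matters: the plain ratio was 0.458 (0.257 to 0.746) for CMPK2 with overexpression and 0.235 (0.157 to 0.350) for DDX60 with knockdown. The other 28 are described below.

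**Figure D2:**
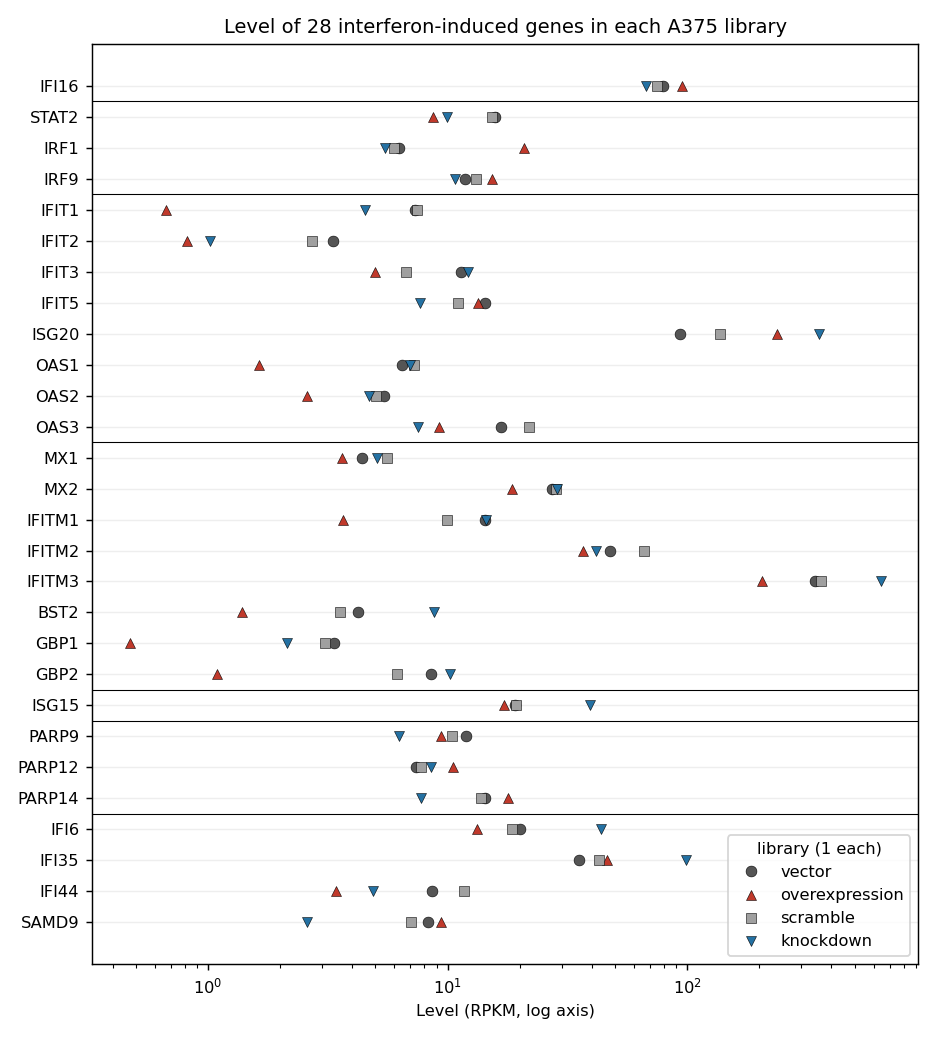
Level in RPKM (log axis) of the 28 genes that reached 5 RPKM in a library or passed 2-fold in a pair, 1 point per library, with lines between functional groups. The overexpression library (upward triangle) lies apart to the left for IFIT1, OAS1, IFITM1, GBP1 and GBP2 and to the right for IRF1.

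With MAGE-A1 overexpression, a group of these genes was lower while IRF1 and ISG20 were higher. Of 35 that could be measured, 9 were lower and 2 higher than in the vector library. The lower share, 25.7%, stood against 7.28% of all 13577 genes measured, and the higher share, 5.71%, against 10.6%. The median log2 ratio was -0.35, against 0.02 over all genes. Lower were IFIT1, IFIT2, IFIT3, OAS1, IFI44, IFITM1, BST2, GBP1 and GBP2. Between the control libraries, scramble over vector, 0 of 36 members reached a log2 ratio of 1 in either direction, against 0.893% higher and 1.79% lower over all genes, with a median log2 ratio of 0.01. HERC5, at 0.906 and 2.06 RPKM, had a plain ratio of 2.27 (1.67 to 3.08) between the controls, the only one of these 36 past 2-fold. The overexpression difference was larger in size than that between the controls in 30 of 35 members (85.7%), against 74.4% of all genes. The overexpression library lay below both controls for 21 of the 35 and above both for 12. The same shares over all genes were not taken, so these 2 counts have no background beside them. Set against the scramble library instead, 8 were lower, against 9.13% of all genes, and 1 was higher, against 12.4%. These 8 were 7 of the 9, without IFIT3 and BST2, and OAS3, and the higher gene was IRF1. With a pseudocount of 0.1 RPKM 11 were lower, against 11.8% of all genes. With a filter of 5 RPKM 6 of 24 measured were lower (25%), against 7.21%. Fewer cells expressing a gene and less RNA of it per cell cannot be told apart in bulk samples.

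The IFIT proteins bind foreign RNA and block its translation. Their genes in this set lie near each other on chromosome 10 (GRCh38, IFIT2 from 89283694, IFIT3 from 89327894, IFIT1 from 89392546 and IFIT5 from 89414586). IFIT1, which recognises RNA caps that lack a host methyl mark, was at 7.29 RPKM with vector, 0.666 with overexpression, 7.45 with scramble and 4.51 with knockdown. Overexpression was thus far below both controls, with a ratio to vector of 0.0914 (0.0482 to 0.152) and about 14 estimated reads against 296. IFIT2 was at 3.32, 0.815, 2.72 and 1.02 RPKM in the same order, a ratio of 0.245 (0.171 to 0.351). IFIT3, which binds IFIT1 and IFIT2, was at 11.4, 4.99, 6.73 and 12.2 RPKM, a ratio of 0.437 (0.363 to 0.524), but its controls differed by a log2 ratio of -0.69, and against the scramble library the overexpression log2 ratio was -0.37. IFIT5, the last of the row, was at 14.3, 13.4, 11.1 and 7.67 RPKM, and its ratio of 0.940 (0.854 to 1.03) included 1. Within 1 gene cluster, then, 3 genes of the set were lower than vector and the fourth lay within counting error of it.

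OAS enzymes detect double-stranded RNA and make a messenger that activates RNase L, and their genes also form a cluster, on chromosome 12 (GRCh38, OAS1 from 112906777, OAS3 from 112938352 and OAS2 from 112978395). OAS1 was at 6.45 RPKM with vector, 1.64 with overexpression, 7.25 with scramble and 6.94 with knockdown. The overexpression value lay below the other 3, which were within 1 RPKM of each other, with a ratio of 0.254 (0.168 to 0.370). OAS2 was at 5.41, 2.58, 5.03 and 4.71 RPKM, a ratio of 0.478 (0.386 to 0.589) and a log2 ratio of -0.84. OAS3, the longest of the family, was at 16.8, 9.26, 21.8 and 7.51 RPKM, a ratio of 0.552 (0.509 to 0.599). All 3 were thus below both controls with overexpression, and the intervals of all 3 ratios lay below 1. ISG20 was at 93.3, 238, 137 and 357 RPKM, higher than vector by a ratio of 2.55 (2.44 to 2.66), and its log2 ratio was 0.79 against the scramble library.

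The group listed under virus entry, assembly or release also took in GBP1, GBP2 and CMPK2, which are not confined to those steps. In that group 4 of 9 measured were lower with overexpression and 0 higher, against 7.28% and 10.6% of all genes. The median log2 ratio was -0.73, and GBP1 and GBP2 were among the 4 lower genes. IFITM1, which acts at the cell surface, was at 14.3 RPKM with vector, 3.68 with overexpression, 9.93 with scramble and 14.4 with knockdown, a ratio of 0.257 (0.171 to 0.376). Its neighbours on chromosome 11 stayed within 2-fold: IFITM2 was at 47.7, 36.9, 66.2 and 41.8 RPKM and IFITM3 at 341, 206, 362 and 644. Their ratios to vector were 0.774 (0.678 to 0.881) and 0.603 (0.569 to 0.638). IFITM2 and IFITM3 are near-identical in sequence, so how reads were split between them is uncertain.

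The guanylate-binding proteins GBP1 and GBP2 are GTPases that coat and attack the compartments of intracellular microbes, and they respond above all to interferon gamma. GBP1 was at 3.35 RPKM with vector, 0.471 with overexpression, 3.08 with scramble and 2.14 with knockdown, a ratio of 0.141 (0.0802 to 0.229). GBP2 was at 8.51, 1.09, 6.18 and 10.2 RPKM, a ratio of 0.128 (0.0836 to 0.187). After IFIT1, GBP2 had the lowest log2 ratio of the set, -2.19, and both GBP genes were also lower against the scramble library, at -1.47 and -1.78. BST2 (tetherin), which ties budding virus to the cell surface, was at 4.24, 1.39, 3.55 and 8.77 RPKM, a ratio of 0.328 (0.181 to 0.588) from about 15 and 84 estimated reads. The dynamin-like GTPases stayed within 2-fold: MX1 was at 4.38, 3.62, 5.61 and 5.10 RPKM and MX2 at 27.3, 18.7, 28.4 and 28.7, with log2 ratios of -0.22 and -0.52.

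Of the 4 transcription factors 1, IRF1, was higher with overexpression and 0 lower, against 10.6% and 7.28% of all genes. With 4 genes these counts do not describe the group. IRF1, which binds ISRE-like sites, was at 6.25 RPKM with vector, 20.8 with overexpression, 5.99 with scramble and 5.48 with knockdown. The overexpression library was above the other 3, which lay within 1 RPKM of each other, and the ratio to vector was 3.32 (2.97 to 3.70). STAT2 was at 15.9, 8.69, 15.3 and 9.96 RPKM, below both controls in both treated libraries, with log2 ratios of -0.80 and -0.57. IRF9, its DNA-binding partner, was at 11.8, 15.4, 13.1 and 10.8 RPKM, with log2 ratios of 0.36 and -0.26. IRF7, which drives the second wave of interferon genes, was at 1.95, 3.80, 2.24 and 3.57 RPKM, with log2 ratios of 0.70 and 0.50.

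No sensor reached a log2 ratio of 1 in size in either pair, though the plain knockdown ratio of DDX60 was past 2-fold. DDX58 (RIG-I), a sensor of RNA with a triphosphate end, was at 1.13 RPKM with vector, 1.73 with overexpression, 1.24 with scramble and 1.46 with knockdown. IFIH1 (MDA5), a sensor of long double-stranded RNA, was at 1.65, 2.62, 2.19 and 1.99 RPKM, and IFI16 at 79.7, 95.4, 75.0 and 67.1. With overexpression these 3 were above both controls, with ratios to vector of 1.53 (1.15 to 2.04), 1.59 (1.23 to 2.06) and 1.20 (1.14 to 1.25). DDX60, a helicase related to RIG-I, was at 1.24, 0.954, 1.25 and 0.295 RPKM. It was lowest in the knockdown library, at a ratio to scramble of 0.235 (0.157 to 0.350) and, with 1 RPKM added, a log2 ratio of -0.80.

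The remaining groups held 1 lower gene, and the rest stayed within 2-fold with overexpression. IFI44, a cytoplasmic protein of less defined function, was at 8.62 RPKM with vector, 3.42 with overexpression, 11.7 with scramble and 4.91 with knockdown, so that it was lower in both pairs, with ratios of 0.396 (0.298 to 0.519) and 0.419 (0.341 to 0.517). ISG15, a ubiquitin-like modifier attached to proteins by HERC5 and removed by USP18, was at 19.1, 17.2, 19.3 and 39.3 RPKM. USP18 was at 4.05, 2.97, 2.86 and 4.39 RPKM and HERC5 at 0.906, 0.619, 2.06 and 1.23. The ADP-ribosyltransferases PARP9, PARP12 and PARP14 were at 11.9, 7.39 and 14.3 RPKM with vector, 9.37, 10.5 and 17.9 with overexpression, 10.4, 7.72 and 13.8 with scramble, and 6.29, 8.51 and 7.72 with knockdown. IFI6, a mitochondrial protein that restrains cell death, was at 20.0, 13.2, 18.5 and 43.7 RPKM, and SAMD9, a restriction factor against poxviruses, at 8.31, 9.38, 7.07 and 2.60. IFI35 was at 35.3, 46.2, 42.9 and 99.1 RPKM, a ratio of overexpression to vector of 1.31 (1.18 to 1.46).

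**Figure D3:**
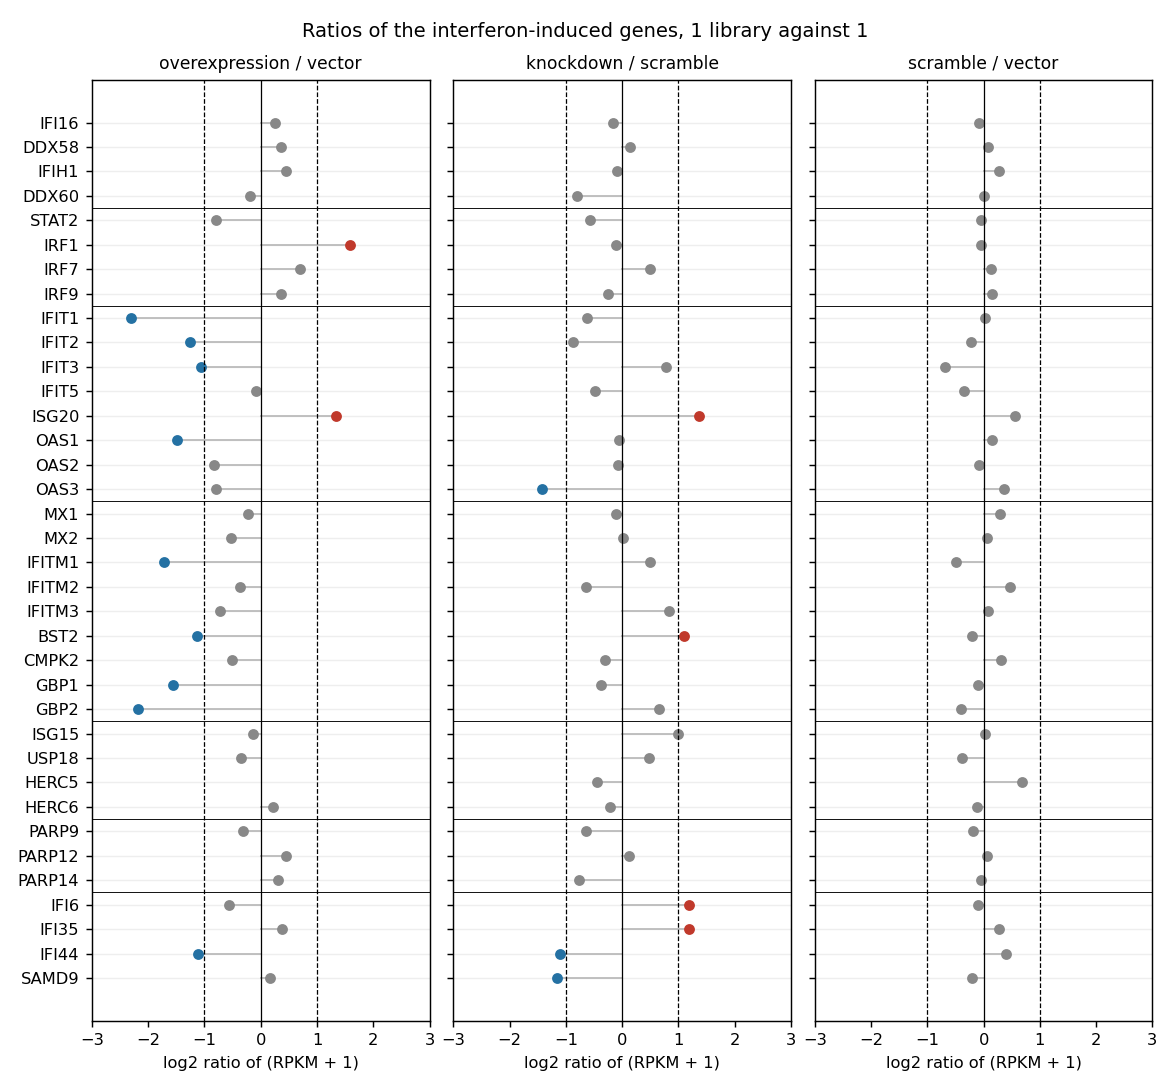
Log2 ratio of (RPKM + 1) for the 36 genes measured in at least 1 main pair, in functional groups separated by lines, for overexpression over vector, knockdown over scramble and scramble over vector (dashed lines at 2-fold, red higher, blue lower). With overexpression 9 points lie at or past -1 and 2 at or past 1, with knockdown 3 and 4, and between the controls none.

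With the MAGE-A1 hairpin, the share of the set past 2-fold was near that of all genes. Of 36 measured, 4 were higher (11.1%) and 3 lower (8.33%) than in the scramble library, against 12.4% and 8.52% of all 13569 genes, and the median log2 ratio was -0.11, against 0.06. Higher were ISG20 with a ratio of 2.60 (2.51 to 2.70), IFI6 with 2.36 (2.00 to 2.82), IFI35 with 2.31 (2.12 to 2.52) and BST2 with 2.47 (1.75 to 3.49). Lower were OAS3 with 0.345 (0.319 to 0.372), IFI44 with 0.419 and SAMD9 with 0.368 (0.323 to 0.419). ISG15, with a ratio of 2.03 (1.68 to 2.46), missed 2-fold only through the added 1 RPKM, at a log2 ratio of 0.99. Set against the vector library instead, 4 were higher and 3 lower, against 14.1% and 11.4% of all genes: ISG20, IFI6, IFI35, OAS3 and SAMD9 passed again, BST2 and IFI44 did not, and ISG15 and IFIT2 were added. With a pseudocount of 0.1 RPKM 5 were lower, DDX60 and IFIT2 being added, against 13.2% of all genes.

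Over all genes in the knockdown pair 12.4% were higher and 8.52% lower. Those shares among all genes lower with overexpression were not taken. Of the 9 genes of the set lower with overexpression, 1 was higher with knockdown (BST2), 1 was lower there too (IFI44), and 7 were not counted as either. One of these 7, IFIT2, was at 1.02 against 2.72 RPKM, a plain ratio of 0.375 (0.277 to 0.500), and missed the threshold through the added 1 RPKM. GBP2, IFIT3 and IFITM1 had knockdown log2 ratios of 0.65, 0.77 and 0.50, and IFIT1, IFIT2 and GBP1 had -0.62, -0.88 and -0.38. IRF1, higher with overexpression, had a knockdown ratio of 0.914 (0.784 to 1.07), which included 1. ISG20 was higher in both treated libraries.

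In the knockdown pair, shorter genes of the set had higher ratios. The 7 measured genes of up to 1500 nt, which were ISG15, IFI6, IFI35, BST2 and all 3 IFITM genes, had a median log2 ratio of 0.99, and 3 were higher, where 33.0% of all genes of that length were. The 11 genes above 1500 and up to 3000 nt had a median of -0.05, and the 18 above 3000 nt one of -0.42, with 2 lower and 0 higher, against 13.9% and 2.89% of all genes of that length. Over all genes with a known length, small RNA genes left out, the medians in these classes were 0.73, 0.27 and -0.31. Between the knockdown log2 ratio and length Spearman's rho was -0.574 over the 36 members and -0.520 over 12548 genes, and with GC content 0.600 and 0.428. These are descriptions across genes of the same 2 libraries. For overexpression over vector, rho with length came to 0.286 over 35 members and 0.0523 over all genes. The part of length and GC content in the results was not tested.

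With a fitted trend on length and GC content removed, ISG20 stayed past 2-fold in the knockdown pair, at 1.01, while IFI6, IFI35 and BST2 came to 0.34, 0.46 and 0.31. OAS3 and IFI44 stayed lower, at -1.14 and -1.21, SAMD9 came to -0.53, and IFITM2, at 41.8 against 66.2 RPKM, became lower at -1.45. This made 1 higher and 3 lower, against 5.01% and 5.17% of all genes. In the overexpression pair 2 were higher and 9 lower with the trend removed, all of them called before, against 8.11% and 6.39% of all genes. Small RNA genes held 78.1% of the summed RPKM in the knockdown library and 29.5% in the scramble library. Setting the libraries to a common total without those genes shifted all genes by a median of -0.45, and 0 members were then higher and 9 lower, against 5.49% and 20.5% of all genes. In the overexpression pair small RNA genes held 87.2% of the summed RPKM with overexpression and 46.3% with vector. There the same step gave a shift of -0.14, with 2 higher and 9 lower members as before, against 8.89% and 10.2% of all genes. With a common upper quartile 2 were higher and 9 lower in the overexpression pair, against 8.59% and 10.3% of all genes, and 1 higher and 5 lower in the knockdown pair, against 7.59% and 14.5%.

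**Figure D4:**
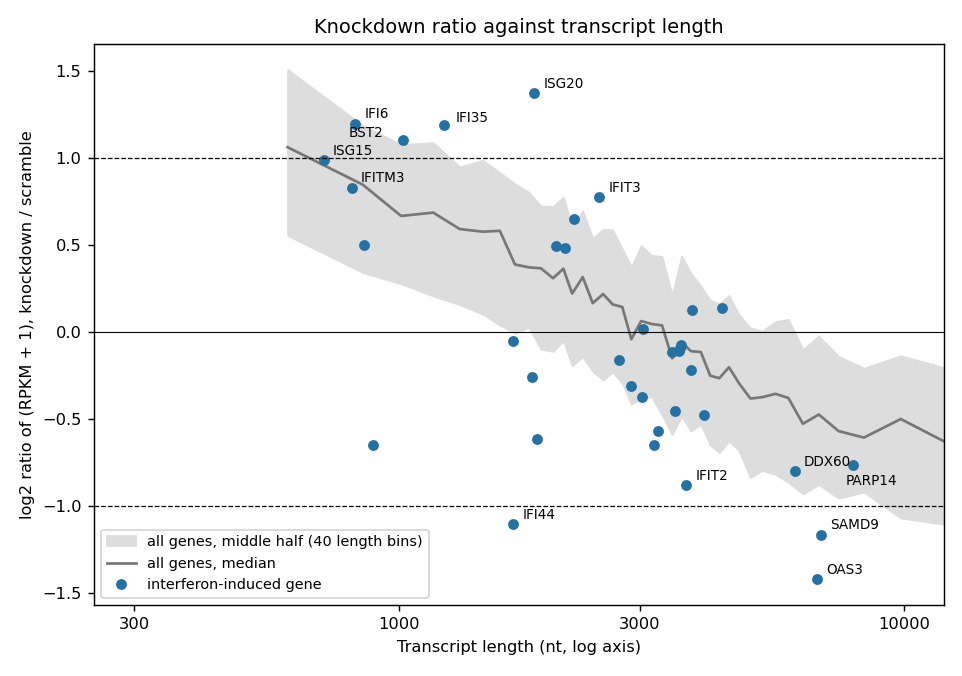
Log2 ratio of (RPKM + 1), knockdown over scramble, against transcript length (nt, log axis) for the 36 measured genes of the set (points) with the median and the middle 50% of all genes in 40 length bins (line and band; dashed lines at 2-fold). IFI35, ISG20 and IFIT3 are among the points above the band, and IFI44, SAMD9 and OAS3 are among those below it.

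Among the other genes of the pathway, few passed 2-fold with overexpression. Of 79 other interferon pathway genes, 55 could be measured in that pair, and 1 was higher and 1 lower, against 10.6% and 7.28% of all genes, with a median log2 ratio of 0.02. TRIM25, the ubiquitin ligase that assists RIG-I, was higher, at 36.3 RPKM with vector, 113 with overexpression, 39.1 with scramble and 23.7 with knockdown. MAVS, the mitochondrial adaptor downstream of RIG-I and MDA5, was lower, at 34.2, 15.2, 32.4 and 32.1 RPKM. Among further induced genes outside the set 0 of 27 measured were counted as higher or lower than vector with overexpression, with a median of -0.01. TRIM22, at 1.29 RPKM with vector and 0.300 with overexpression, missed being counted as lower only through the added 1 RPKM. So did PARP10, at 9.62 and 4.78 RPKM. The count of 0 also depended on the control. Set against the scramble library, PML and LGALS3BP were lower, at -1.23 and -1.12, and PNPT1, DTX3L and IFI30 higher, at 1.12, 1.09 and 1.06. In the other groups IFNGR1 and AIM2 were then higher too, at 1.11 and 1.13. Over all genes 9.13% were lower and 12.4% higher against that library.

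Of 9 interferon genes listed, 6 were listed at 0 in every library, IFNB1 and IFNG among them, and the highest was IFNE at 1.49 RPKM with overexpression. Receptors and signalling genes were present and within 2-fold in both pairs: IFNAR1 was at 10.7, 10.4, 9.48 and 5.40 RPKM in the order used above, and IFNAR2 at 10.9, 5.90, 9.84 and 5.96. JAK1 was at 26.2, 32.9, 24.6 and 12.3 RPKM. With knockdown, 3 of 55 measured pathway genes were higher and 1 lower, against 12.4% and 8.52% of all genes, so neither count stood above the background. IFI30, a lysosomal thiol reductase, was at 72.9 RPKM with scramble and 403 with knockdown (log2 ratio 2.45), LY6E, a surface protein that restrains coronavirus entry, at 182 and 461 (1.34), and the nuclear body protein SP110 at 5.78 and 14.8 (1.22). SOCS3, a feedback inhibitor of JAK kinases, was lower, at 15.5 and 2.83 (-2.10). With the length and GC trend removed LY6E came to 0.51, and the other 3 stayed past 2-fold at 1.71, 1.17 and -2.42.

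Markers of other cell types were checked, since leukocytes express many of these genes. Of the 9 leukocyte markers, 4 reached 1 RPKM in each library, with sums of 830 to 1337 RPKM that were lowest with overexpression. That sum was almost wholly CD74 and HLA-DRA, at 529 to 962 and 204 to 382 RPKM. The other markers at 1 RPKM or more were CD68, at 23.8 to 39.8 RPKM, and LYZ, at 1.63 to 5.40. The defining leukocyte marker PTPRC (CD45) was at most 0.0436 RPKM, and the T cell marker CD3E at most 0.0602. Plasmacytoid and dendritic cell markers summed to at most 1.03 RPKM, endothelial ones to at most 3.37, keratinocyte ones to at most 6.41 and fibroblast ones to at most 13.3, with the 3 last sums lowest with overexpression. Their part in the result was not tested. Of the melanoma markers, SOX10 was at 281 to 336 RPKM and MITF at 7.17 to 11.4. The pigment genes PMEL, MLANA and TYR stayed under 1 RPKM, while DCT, another pigment gene, was at 1.14 to 8.16. With overexpression S100B was at 17.4 RPKM, against 88.8 with vector and 49.5 with scramble, and AXL at 347, against 53.7 and 80.6.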

How the data were processed

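The 4 libraries of the A375 line, 1 per group, were compared in the pairs that the labels give. The deposited values are RPKM, per the file headers, 1 per gene symbol. Tools listed by the submitters' processing notes are Cufflinks 2.2.0, TopHat2 2.0.13, SAMtools 1.1 and Bowtie2 2.2.4, with the build hg19. The annotation behind the RPKM is not stated in the labels. The extraction protocol mentions 2 samples, so a shared preparation of the 2 pairs is not known.

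The members and lists were chosen with earlier results of these data known. A pseudocount of 1 RPKM was added before log2 ratios were taken, genes under 1 RPKM in both libraries of a pair were left out, and 2-fold was the threshold. Genes at 5 RPKM in any library or past 2-fold were given with all their values, and other pathway genes were named where past 2-fold at 5 RPKM or more. Marker genes, low members and pathway genes within 2-fold were singled out after their values were seen.

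Depth was estimated from the steps of low RPKM in 2125 genes longer than 600 nt that have 1 GENCODE 29 transcript, with 200 nt taken off each length. The depth kept was the one with the largest share of low values within 0.1 of a whole read. That share was 64.6% to 70.3%. Chance gives 20% at a depth fixed beforehand, and more at the best of many depths, so the 2 are not a like comparison. Read numbers of members used the longest principal transcript, so they and the interval widths depend on that choice. Intervals are exact conditional (Clopper-Pearson). Alternatives were another pseudocount, other filters, 2 rescalings, other controls, and removal of a cubic trend on length and GC content. Gene positions are GRCh38, from GENCODE 29, and promoters are from RefSeq. A few single items are not reported here. Python 3.11.15, NumPy 2.4.6, pandas 2.3.3 and SciPy 1.17.1 were used. The depth estimate and the 2-fold calls were tried on simulated reads. These were drawn with the same transcript lengths, so an error in the lengths would not show there. The other steps were not simulated.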

Additional observations from a re-analysis of the deposited data

How the results depend on the processing

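With overexpression, the 9 lower members stayed within 1.5 times that count under all 8 alternatives (6 to 11) and the median stayed between -0.48 and -0.22. The number measured ran from 24 with the 5 RPKM filter, where 6 were lower, to 41 without a filter. The higher count was 2 throughout, except 1 against the scramble library. With knockdown the counts moved more. A pseudocount of 0.1 gave 5 lower. A common upper quartile, with a median shift of -0.26 over all genes, gave 1 higher, 5 lower and a member median of -0.36. Its shift was -0.16 in the overexpression pair, where all genes went from 10.6% higher and 7.28% lower to 8.59% and 10.3%. In the knockdown pair all genes went from 12.4% and 8.52% to 7.59% and 14.5%. A common total without small RNA genes gave 0 higher, 9 lower and a median of -0.54 in the knockdown pair, and the trend removal gave 1 higher. The cause was not tested. Of 442 values of single genes under alternatives, 318 moved by less than their counting error, 124 by more, and 0 calls changed sign. No paired analysis was possible because each group held 1 library. Leaving out a control leaves the comparison with the other control, where overexpression had 8 lower and 1 higher and knockdown 3 lower and 4 higher. Low genes limit precision: IFIT1 with overexpression rests on about 14 estimated reads, BST2 on 15 and GBP1 on 17.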
